A study of Mus musculus with 18 samples.

Results

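Collagen genes were described across the substantia nigra libraries of 3 groups of mice. The members are all 44 of the 55270 rows whose gene symbol has the form of a collagen alpha chain (Col, a type number, a, a chain number), a choice made by name and not by value. By textbook structure they comprise 11 fibrillar chains, 8 chains of basement membranes and their margins (the 6 type IV chains, Col15a1 and Col18a1) and 25 others. The others are 6 type VI chains of beaded filaments, 3 short chain network formers, 9 FACIT chains (fibril-associated collagens with interrupted triple helices), 4 transmembrane chains and 3 anchoring or unclassified chains.

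The substantia nigra is the midbrain region that holds many of the dopaminergic neurons projecting to the striatum. All tissue was taken at 3 months of age. The intact group had a genotype given as WT and no virus named, the AAV-GFP group overexpressed green fluorescent protein from an adeno-associated virus (AAV) and the AAV-SIRT3 group overexpressed SIRT3, a mitochondrial deacetylase, from an AAV, in both cases about a month after the virus was given. Each group held 6 mice, with 1 library of poly-A RNA per mouse. The labels used here give the genotype of the virus groups as the virus alone, and give no strain, sex, serotype or promoter, so it is not known which cells the virus drove its product in.

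Collagens are extracellular proteins whose chains wind together into a rope-like helix, which requires a glycine at regular intervals along each chain. Fibrillar chains form the banded fibrils of connective tissue, type IV chains form the sheet-like network of basement membranes, and FACIT chains sit on fibril surfaces. In brain, basement membranes surround the vessels and underlie the meninges, while fibrillar collagen is mostly a product of fibroblasts of the meninges and of large vessels. Some chains are instead made by neurons, among them Col25a1, a transmembrane chain, and Col19a1, a FACIT chain.

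The repeat that defines the family is shown first, because its unbroken length sets the fibrillar chains apart from the other classes. The ranges of those classes overlap each other, except that short chain network formers lie above transmembrane chains. In GENCODE M21 (GRCm38) all 44 members had a coding sequence. Capitals mark the glycine codons of the repeat. Col1a1 and Col1a2, the chains of type I collagen, open their longest run of triplets with these bases, codons 168 to 197 and 97 to 126:
Col1a1: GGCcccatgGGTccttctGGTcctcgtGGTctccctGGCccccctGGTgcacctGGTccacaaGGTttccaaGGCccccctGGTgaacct
Col1a2: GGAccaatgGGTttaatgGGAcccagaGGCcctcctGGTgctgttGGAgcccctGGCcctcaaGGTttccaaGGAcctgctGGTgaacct
In type IV and FACIT chains the run is broken by short stretches without the glycine. The next lines show the first short break between long runs of Col4a5 (codons 150 to 179, a break of 6 codons), Col4a6 (codons 268 to 293, a break of 2) and Col19a1 (codons 373 to 399, a break of 3), members whose values are described at length below:
Col4a5: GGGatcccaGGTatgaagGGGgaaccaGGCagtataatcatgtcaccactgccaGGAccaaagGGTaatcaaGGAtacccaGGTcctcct
Col4a6: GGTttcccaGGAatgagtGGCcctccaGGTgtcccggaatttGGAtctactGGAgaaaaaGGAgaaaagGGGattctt
Col19a1: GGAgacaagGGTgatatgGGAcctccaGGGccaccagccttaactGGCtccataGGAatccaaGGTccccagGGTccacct

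Counting unbroken runs of at least 5 triplets, the longest run of the 11 fibrillar chains held 216 to 344 triplets with a median of 338. Col24a1 and Col27a1, whose helix is known to be shorter, were the members at 216 and 217, and the other 9 lay at 337 or more. The longest runs of the 8 basement membrane chains held 30 to 66 triplets, in coding sequences with 10 to 24 separate runs. Among FACIT chains the longest run ran from 32 triplets in Col12a1, Col14a1 and Col20a1 to 113 in the 3 type IX chains and Col22a1. No chain outside the fibrillar class exceeded 113 triplets.

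**Figure D1:**
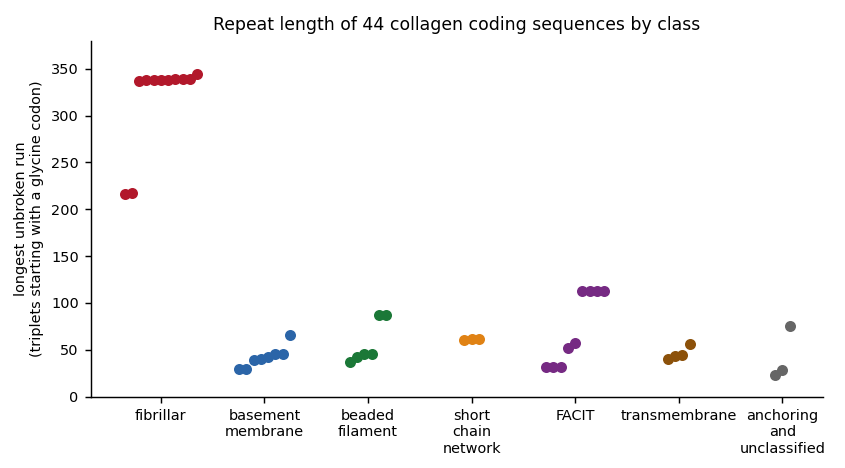
Longest unbroken run of triplets that begin with a glycine codon (vertical axis, number of triplets) in the coding sequence of each of 44 collagens, 1 point per gene, by class. The fibrillar chains lie at 216 to 344 triplets and every chain of the other classes at 113 or fewer.

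The 44 genes lie on 15 chromosomes, and 18 of them sit within 1 Mb of another member. Each type IV pair shares its start region head to head, as is well known of these genes. In GENCODE M21 the annotated Col4a1 and Col4a2 overlap by 22 bp at their 5′ ends on chromosome 8, Col4a4 and Col4a3 are 71 bp apart on chromosome 1, and Col4a6 and Col4a5 are 1308 bp apart on chromosome X. Their gene models span 141475385 to 141689234 (plus strand) for Col4a5 and 141165403 to 141474076 (minus strand) for Col4a6. The last pair varied together among libraries, as given further on, and the bases just upstream of each start are given, from the RefSeq promoter table (GRCm38.p6), each 5′ to 3′ on the strand of its gene, as chrX:141475169-141475384 on the plus strand for Col4a5 and chrX:141474077-141474326 on the minus strand for Col4a6. Capitals mark matches to CCAAT, or to GGGCGG on either strand (CCGCCC as printed).
Col4a5: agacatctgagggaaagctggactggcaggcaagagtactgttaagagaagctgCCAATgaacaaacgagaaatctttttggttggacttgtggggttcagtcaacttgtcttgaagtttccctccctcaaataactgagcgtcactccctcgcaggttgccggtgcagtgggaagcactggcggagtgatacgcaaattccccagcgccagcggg
Col4a6: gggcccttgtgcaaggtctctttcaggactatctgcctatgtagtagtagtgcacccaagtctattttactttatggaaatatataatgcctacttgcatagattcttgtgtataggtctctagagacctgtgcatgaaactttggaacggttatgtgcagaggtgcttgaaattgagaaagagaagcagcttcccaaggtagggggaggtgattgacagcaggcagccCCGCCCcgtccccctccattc
The table held 38 windows of 300 bases for 35 of the members. GGGCGG, the GC box, was found on either strand in 23 of these 38 windows (60.5%), against 35.7% of all 32851 windows. CCAAT was found in 13 of 38 (34.2%, against 37.4%) and TATAAA in 5 of 38 (13.2%, against 13.6%). Member windows had a median GC content of 59.8%, against 52.7% over all windows. Such a match is a run of letters and not a measured site.

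Recovered depth was 47182529 to 64728587 reads per library, and 43 of the 44 members passed the filter for testing (10 or more in 6 or more libraries). Col10a1, a chain of growth plate cartilage, did not pass, with 0.851 to 14.3 normalised reads over the 18 libraries, so its level could not be compared at this depth. Tissue identity was checked on Th, the dopamine synthesis enzyme, which lay at 3673 to 6637 normalised reads in all 18 libraries. Sirt3, the gene delivered by the virus, averaged 1937 ± 79.4 after AAV-SIRT3, 1775 ± 92.4 after AAV-GFP and 1824 ± 66.3 without virus (SD, n = 6 per group), a difference between the virus groups that did not pass over all genes (limma, adjusted p = 0.183). Its groups overlapped, so this gene does not check the labels of the virus libraries, and how reads of the delivered sequence were counted was not tested. Several libraries stood apart in markers of neighbouring tissue. Summed choroid plexus markers were 53563 in intact replicate 2 and 47361 in AAV-GFP replicate 5, against 2289 to 7426 elsewhere. Summed thalamus markers were 59430 to 62207 in intact replicates 1, 3 and 5, against 84682 to 114578 in the other 15 libraries, and summed anterior pituitary markers were 741 to 5429 in intact against 251 to 702 in AAV-GFP and 239 to 807 in AAV-SIRT3. Of the 8 pituitary markers, Fshb was at 0 in 12 libraries and Pou1f1 in 11.

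The baseline question was which collagens intact substantia nigra transcribes. Levels between genes are compared here as normalised reads per kb of exon, with all annotated exons of a gene merged. The order thus depends in part on the annotation. Col1a2 had 12.4 kb of such exon for 1372 codons, and Col1a1 6.56 kb for 1453 codons. Col4a2, a chain of vessel basement membrane, led with 553 ± 50.2 reads per kb (SD, n = 6), and its partner Col4a1 had 319 ± 15.9. Col25a1, the transmembrane chain, lay between them at 516 ± 61.2, and Col16a1, a FACIT chain, at 370.2 ± 35.3. Next came Col11a2, a minor fibrillar chain, with 313 ± 33.9, and Col9a2, a chain of type IX, with 284 ± 22.6. These 6 genes held 49.1% of the summed per-kb level of all members.

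The chains of ordinary connective tissue fibrils were lower by this measure. Col1a2 had 144 ± 30.3 reads per kb, Col1a1 126 ± 32.3 and Col3a1, the chain of type III fibrils, 49.9 ± 13.6 (SD, n = 6 each). The highest fibrillar chains per kb of exon were thus Col11a2 and Col11a1 (239 ± 25.3), which belong to the type XI fibrils best known from cartilage. Each remaining class was led by Col6a1 (202 ± 48.1) and Col6a2 (87.6 ± 12.9) for type VI, Col8a2 (63.6 ± 11.5) and Col8a1 (53.7 ± 15.0) for short chain networks, Col25a1 and Col23a1 (120.2 ± 28.0) for transmembrane chains, and Col26a1 (52.2 ± 5.64) and Col7a1 (24.1 ± 2.66), the anchoring fibril chain, for the last class. The lowest tested member was Col17a1, a hemidesmosome chain, at 4.89 ± 2.00. In this order 42 of the 43 neighbouring pairs had overlapping ranges over the 6 libraries, so only the coarse order is resolved. The exception was Col25a1 over Col16a1, whose ranges were 405 to 580.2 and 324 to 404 reads per kb.

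**Figure D2:**
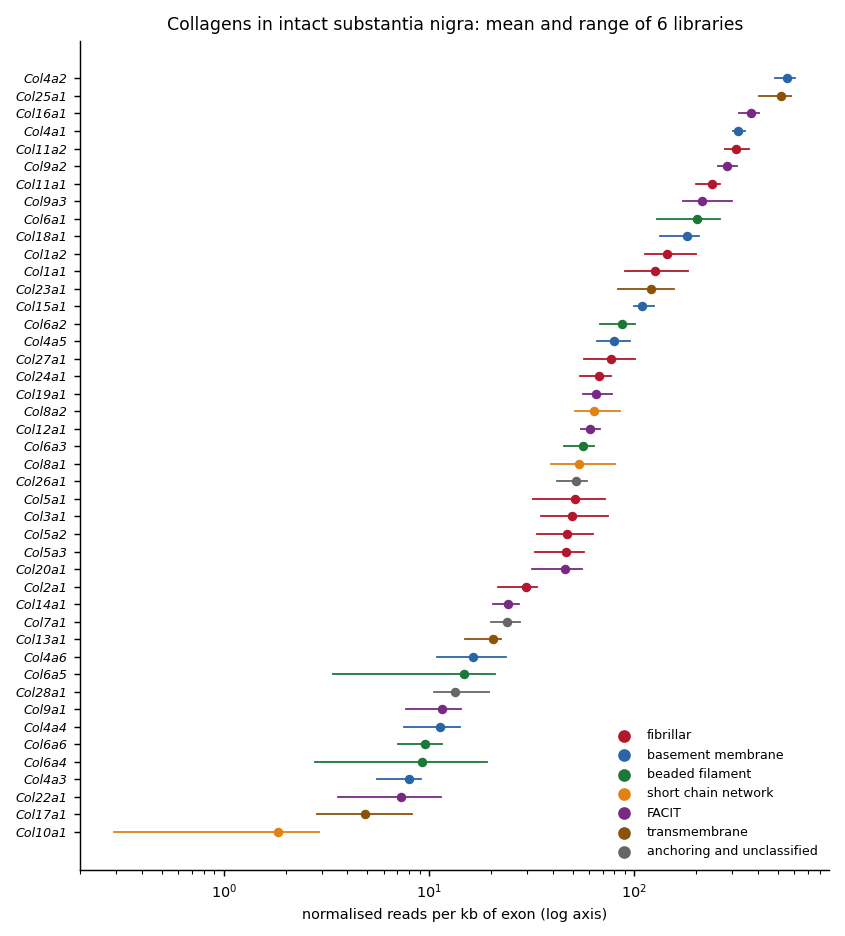
Level of each of 44 collagens in intact substantia nigra, as normalised reads per kb of exon on a log axis. Points are means and lines the range of 6 libraries, coloured by class, and the basement membrane chains Col4a2 and Col4a1 stand among the highest 4.

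AAV-SIRT3 against intact was the comparison with the most called collagens. It combines the virus, the month after it and SIRT3. Of 43 tested collagens, 11 fell and 0 rose at an adjusted p under 0.05. Over all 19443 tested genes 21.7% were called, 10.3% as lower and 11.3% as higher. The 11 were 4 type IV chains (Col4a1, Col4a3, Col4a5, Col4a6), 3 fibrillar chains (Col2a1, Col11a1, Col11a2), 2 type VI chains (Col6a1, Col6a3), Col19a1 and Col23a1. Thus 25.6% of tested collagens were called lower. At an unadjusted p under 0.05, 18 of 43 had values below zero and 0 above. Of all 19443 genes 3311 were lower and 3477 higher at that p (34.9% in both directions together). Collagen transcripts are long, with a median exon length of 7.62 kb against 3.78 kb for all tested genes, and among the 4229 tested genes with at least 6.46 kb of exon (the lower quartile of the collagens) 24.3% were called lower. The share of collagens called lower was therefore above that of all genes and near that of genes of similar length, a set chosen after the values were seen. With the trend on exon length taken off in each library, also an added analysis, 8 of the 11 calls were kept and those of Col11a1, Col11a2 and Col4a6 were lost, with 3198 of 18855 genes called. The median log2 fold change was -0.30 for the collagens, -0.082 for those long genes and -0.0049 for all genes. Values lay below zero for 38 of 43 collagens, 72.6% of the long genes and 50.9% of all genes. At the unadjusted p, 1535 of the 4229 long genes were lower. In bulk tissue, fewer cells of a type and less RNA per cell cannot be told apart.

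The basement membrane chains come first. Col4a1 forms with Col4a2 the main type IV trimer of vessels. Its normalised reads ran from 2259 to 2583 (median 2369.7) in intact, from 2035 to 2293 (median 2166) in AAV-GFP and from 1929 to 2204 (median 2029) in AAV-SIRT3 libraries. Every AAV-SIRT3 library was below every intact library, and AAV-GFP overlapped both. The log2 fold change against intact was -0.22 (SE 0.0436, limma, adjusted p = 0.00196). Col4a1 and Col19a1 were the 2 of 43 collagens whose AAV-SIRT3 libraries all lay below the intact ones. That share was near the 4.32% of all tested genes, and 508 of the 4229 long genes separated in the same way. Col4a2 ran from 3204 to 4030.4 (median 3755) in intact, from 3091 to 3514 (median 3336) in AAV-GFP and from 3096 to 3602 (median 3235) in AAV-SIRT3 libraries. Its groups overlapped, and its difference of -0.15 (SE 0.0554, limma, adjusted p = 0.0602) did not pass, although it passed with TMM factors, quantile normalisation, array weights, edgeR or DESeq2.

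Col4a5 and Col4a6 encode chains of the type IV network that also occurs in smooth muscle and meninges. For Col4a5 the values ran from 443 to 640.0 (median 531) in intact, from 411 to 621 (median 543) in AAV-GFP and from 329.9 to 467 (median 366) in AAV-SIRT3 libraries. The AAV-SIRT3 libraries were lower than most others, with 2 of them, replicates 1 and 6, inside the range of the intact group. Against intact the log2 fold change was -0.46 (SE 0.108, limma, adjusted p = 0.00512). Col4a6 ran from 86.9 to 189 (median 133) in intact, from 86.4 to 188 (median 159) in AAV-GFP and from 48.7 to 112 (median 81.2) in AAV-SIRT3 libraries. Its AAV-SIRT3 libraries were low with the upper 3 inside the intact range, and the fold change was -0.73 (SE 0.235, limma, adjusted p = 0.0307). This call was lost without any 1 of intact replicates 4 and 5 or AAV-SIRT3 replicates 2, 4 and 5.

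Col4a3, a chain of the network known from kidney, was low throughout, from 55.7 to 90.7 (median 87.0) in intact, from 45.3 to 115 (median 60.2) in AAV-GFP and from 37.7 to 57.1 (median 49.4) in AAV-SIRT3. The intact range began below the highest AAV-SIRT3 library. The difference was -0.70 (SE 0.203, limma, adjusted p = 0.0183). Its neighbour Col4a4 did not pass, with -0.44 (SE 0.232, limma, adjusted p = 0.183). Outside type IV, Col18a1, the source of endostatin, had -0.28 (SE 0.146, limma, adjusted p = 0.181) and Col15a1, a chain of the outer margin of basement membranes, had 0.013 (SE 0.0861, limma, adjusted p = 0.934), and neither passed. The 95% interval of the Col15a1 difference was -0.17 to 0.19.

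Of the fibrillar class, all 11 chains had values below zero and 3 passed. Col2a1, the main collagen of cartilage, ran from 201 to 311 (median 286) in intact, from 220.4 to 263 (median 241) in AAV-GFP and from 189 to 216 (median 202) in AAV-SIRT3 libraries. AAV-SIRT3 libraries were low and close together, and the intact range began inside theirs. The difference was -0.42 (SE 0.0982, limma, adjusted p = 0.00535). Col11a1 ran from 2545 to 3323 (median 3146) in intact, from 2401 to 2886 (median 2563) in AAV-GFP and from 2325 to 2903 (median 2605) in AAV-SIRT3 libraries. Both virus groups were low with overlap into the intact range, and AAV-SIRT3 differed from intact by -0.23 (SE 0.0669, limma, adjusted p = 0.0185). Col11a2, its partner chain, ran from 1894 to 2496 (median 2068) in intact, from 1929 to 2329 (median 2029.8) in AAV-GFP and from 1629 to 2072 (median 1894) in AAV-SIRT3 libraries. The 3 groups overlapped, the difference was -0.19 (SE 0.0672, limma, adjusted p = 0.044), and the call was lost in 9 of the 18 fits that left out 1 library (any of intact replicates 1, 2, 4 and 5, AAV-GFP replicate 4, and AAV-SIRT3 replicates 1, 3, 4 and 5).

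The type I and III chains did not pass, and their values spread widely within groups. Col1a1 ran from 589 to 1200.2 (median 795) in intact, from 509 to 970.2 (median 712) in AAV-GFP and from 417 to 849 (median 534) in AAV-SIRT3 libraries. The groups overlapped widely, and AAV-SIRT3 replicates 1 and 6 lay within the middle of the intact range. The difference was -0.50 (SE 0.195, limma, adjusted p = 0.0714) and did not pass. It passed without intact replicate 3, without AAV-SIRT3 replicate 1 or without AAV-SIRT3 replicate 6. Col1a2 ran from 1407 to 2472 (median 1743) in intact, from 1177 to 2364 (median 1723) in AAV-GFP and from 949 to 2096 (median 1227) in AAV-SIRT3 libraries, again with wide overlap, and differed by -0.38 (SE 0.197, limma, adjusted p = 0.18). Col3a1 ran from 346 to 734 (median 465) in intact, from 289.7 to 679 (median 456) in AAV-GFP and from 214 to 584 (median 315) in AAV-SIRT3 libraries. The same 2 AAV-SIRT3 libraries were its highest in that group, and it differed by -0.47 (SE 0.228, limma, adjusted p = 0.145), which passed only when AAV-SIRT3 replicate 1 was left out. The remaining 5 fibrillar chains, Col5a1, Col5a2, Col5a3, Col24a1 and Col27a1, did not pass, with log2 fold changes from -0.42 to -0.15.

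Type VI chains form beaded filaments next to basement membranes. Col6a1 ran from 567 to 1150.0 (median 906) in intact, from 445 to 831 (median 649) in AAV-GFP and from 431 to 754 (median 596) in AAV-SIRT3 libraries. Most AAV-SIRT3 libraries were below most intact ones, with overlap, and the difference was -0.58 (SE 0.161, limma, adjusted p = 0.0144). Col6a3, the longest chain of the trimer, ran from 543 to 764 (median 679.6) in intact, from 421 to 668 (median 565) in AAV-GFP and from 378 to 609.9 (median 466) in AAV-SIRT3 libraries. The highest AAV-SIRT3 library, replicate 6, reached above the lowest 2 intact ones, and the difference was -0.52 (SE 0.122, limma, adjusted p = 0.00507). Col6a2, the other chain of that trimer, ran from 565 to 835 (median 769.7) in intact, from 421 to 709.8 (median 666) in AAV-GFP and from 383 to 864 (median 549) in AAV-SIRT3 libraries. It overlapped across groups and did not pass, with -0.39 (SE 0.166, limma, adjusted p = 0.0986). Col6a4, Col6a5 and Col6a6, which can replace Col6a3, had differences from -0.52 to -0.29 and did not pass.

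Col19a1 had the largest difference of any collagen and the smallest adjusted p. It is a FACIT chain that some neurons make and that takes part in synapse formation. Its GENCODE M21 gene model spans chromosome 1 from 24261890 to 24587472, on the minus strand, tail to tail with Col9a1 at 9.21 kb. Its normalised reads ran from 385 to 535 (median 437) in intact, from 207 to 371 (median 308) in AAV-GFP and from 181 to 304 (median 249) in AAV-SIRT3 libraries. All intact libraries were above all AAV-SIRT3 and all AAV-GFP libraries, and the virus groups overlapped. AAV-SIRT3 against intact gave a log2 fold change of -0.87 (SE 0.13, limma, adjusted p = 0.000538), a call that held in each of the 35 alternatives. Col23a1, a transmembrane chain, ran from 480.4 to 896 (median 664) in intact, from 369 to 628 (median 495) in AAV-GFP and from 244 to 567 (median 452) in AAV-SIRT3 libraries. The groups overlapped, with AAV-SIRT3 replicate 2 the lowest of all libraries, and the difference was -0.66 (SE 0.175, limma, adjusted p = 0.0113).

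The other abundant members of these classes did not pass. Col25a1, next after Col4a2 per kb, ran from 5239 to 7511 (median 6857) in intact, from 5131 to 7355 (median 6317) in AAV-GFP and from 5498 to 7024 (median 6471) in AAV-SIRT3 libraries. Its groups overlapped throughout, and the 95% interval of its difference was -0.22 to 0.11. Col16a1 ran from 2186 to 2728 (median 2551) in intact, from 1988 to 2554 (median 2285) in AAV-GFP and from 2008 to 2795 (median 2178) in AAV-SIRT3 libraries and differed by -0.15 (SE 0.0766, limma, adjusted p = 0.184). Col9a2 ran from 791 to 975 (median 878) in intact, from 757 to 1049.5 (median 825) in AAV-GFP and from 722 to 1084 (median 825) in AAV-SIRT3 libraries. It overlapped in all groups, with an interval of -0.23 to 0.15. For the short chain network formers, Col8a1 differed by -0.34 (SE 0.174, limma, adjusted p = 0.167) and Col8a2 by -0.34 (SE 0.173, limma, adjusted p = 0.173). Their ranges in intact tissue were 308 to 631 (median 382) and 229.6 to 382 (median 275), and both overlapped the other groups. Col7a1 had -0.033 (SE 0.102, limma, adjusted p = 0.849) and Col26a1 0.18 (SE 0.11, limma, adjusted p = 0.261). The remaining members of these classes (Col9a1, Col9a3, Col12a1, Col14a1, Col20a1, Col22a1, Col13a1, Col17a1 and Col28a1) had log2 fold changes from -0.45 to 0.18, and none passed.

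**Figure D3:**
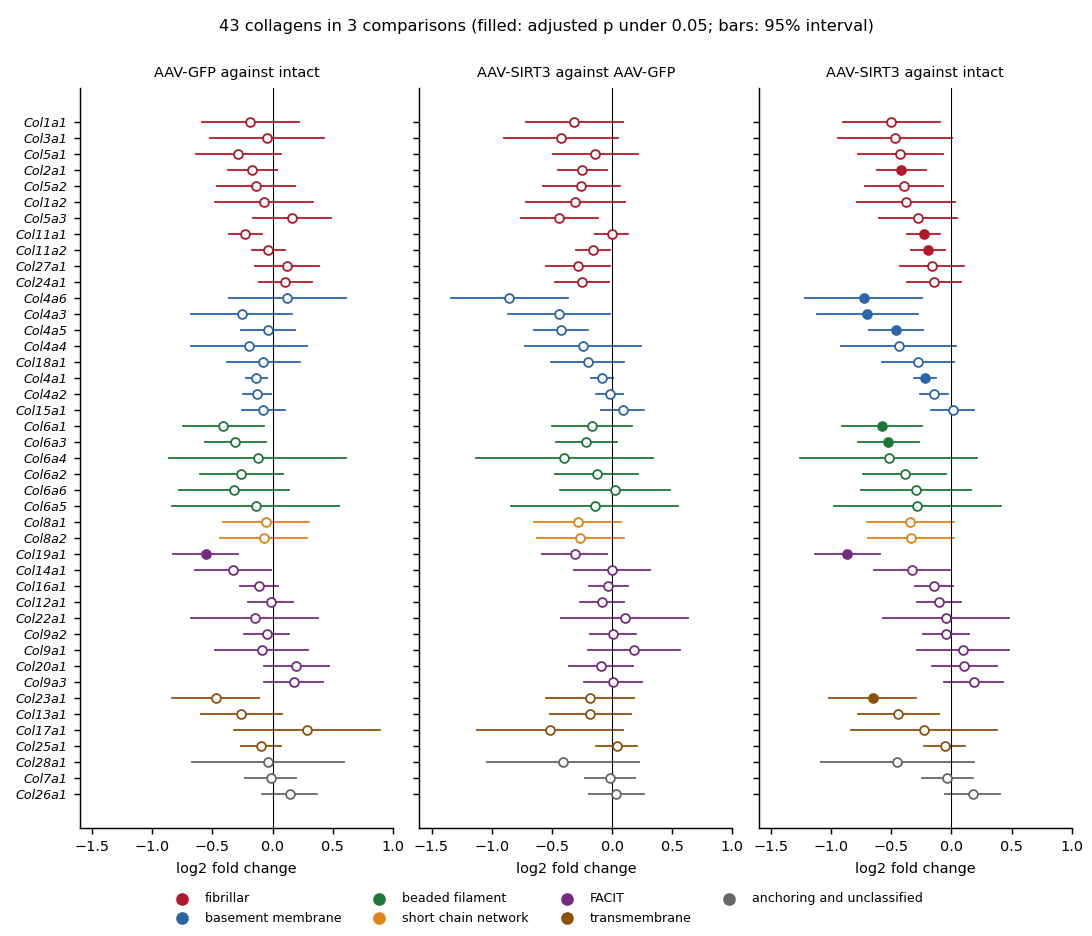
Log2 fold change (horizontal axis) of 43 collagens in 3 comparisons, with 95% intervals from limma, coloured by class and filled where the adjusted p is under 0.05. AAV-SIRT3 against intact has 11 filled points, all below zero, AAV-GFP against intact has Col19a1 alone, and AAV-SIRT3 against AAV-GFP has 0.

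Markers of other cells were also called in the same comparison, where 10.3% of all genes were called lower and 11.3% higher. Of 12 endothelial markers 6 fell and 1 rose, of 10 pericyte markers 2 fell, of 14 tested leptomeningeal markers 2 fell, of 12 choroid plexus markers 3 fell, and of 6 tested pituitary markers 4 fell. Of 12 thalamus markers 9 rose, of 12 microglia markers 7 rose, and 0 of 5 tested smooth muscle markers passed. Of 8 mature oligodendrocyte markers 2 rose, of 12 reactive astrocyte markers 1 rose, and of 8 oligodendrocyte precursor markers 1 fell and 1 rose. None of 10 dopaminergic neuron and 8 astrocyte markers passed. The leptomeningeal share called lower, 14.3%, was near that of all genes. However, 13 of the 14 had values below zero, with a median log2 fold change of -0.42, against 50.9% and -0.0049 for all genes. At an unadjusted p under 0.05 in limma, 6 of the 14 were lower and 0 higher. Summed endothelial markers ranged over 10598 to 13437 in the intact group, 11392 to 14204 after AAV-GFP and 9531 to 13486 after AAV-SIRT3, and summed pericyte markers 13458 to 15896, 13089.6 to 15859.8 and 11361 to 14875. Summed leptomeningeal markers were 59667 to 103155, 49502 to 108576 and 47005 to 109739, of which Ptgds, also made by other cells, was 82.3 to 89.1%. Without Ptgds the sums were 10183 to 13697 in intact (mean 11566), 8251 to 12835 after AAV-GFP (mean 10811) and 7775 to 12279 after AAV-SIRT3 (mean 9545). Dpep1 of that list was at 0 in 11 libraries. With the mean log2 thalamus marker level as a covariate, an analysis added after the data were seen, 2 of the 11 calls remained, Col19a1 (-0.70, limma, adjusted p = 0.0213) and Col4a1 (-0.24, adjusted p = 0.0239). With the leptomeningeal markers as the covariate 6 remained, namely Col19a1, Col23a1, Col2a1, Col4a1, Col4a5 and Col6a3. The 9 others of the first fit and the 5 others of the second were lower by less and missed the threshold, except that Col4a3 kept its size with the thalamus covariate (-0.74, adjusted p = 0.0994). Over all genes the share called was 21.7% without a covariate, 6.71% with the thalamus and 20.5% with the leptomeningeal covariate. With both choroid-rich libraries left out 13 collagens were called lower, 10 of them among the 11, and 1 higher, Col9a3, with 18.4% of all genes called. The part of endothelial, pericyte, microglia and pituitary markers in the result was not tested.

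AAV-GFP against intact shows what went with a virus that carries no SIRT3. Only Col19a1 passed. Its log2 fold change was -0.56 (SE 0.13, limma, adjusted p = 0.0331), and every AAV-GFP library was below every intact one. This was 1 of 43 collagens, against 1.84% of all tested genes called (1.02% lower and 0.823% higher) and 2.96% of the long genes called lower. All AAV-GFP libraries lay below the intact ones for 0.988% of all genes and for 109 of the 4229 long genes. The call was lost without any 1 of 7 libraries (intact replicates 1, 3, 4 and 5 and AAV-GFP replicates 2, 5 and 6) and with the thalamus covariate, where the value was -0.41. At an unadjusted p under 0.05, 8 collagens had values below zero (Col4a1, Col4a2, Col6a1, Col6a3, Col11a1, Col14a1, Col19a1 and Col23a1) and 0 above. Of all 19443 genes 1843 were lower and 1864 higher at that p (19.1% in both directions together), and 884 of the 4229 long genes were lower. Col11a1 had -0.23 (SE 0.0669, limma, adjusted p = 0.075), Col6a1 -0.41 (SE 0.161, limma, adjusted p = 0.168) and Col23a1 -0.47 (SE 0.175, limma, adjusted p = 0.141). By contrast Col4a5 had -0.039 (SE 0.108, limma, adjusted p = 0.882) and Col4a6 0.12 (SE 0.235, limma, adjusted p = 0.822). The median over collagens was -0.096, with 35 of 43 below zero, against 0.00074 and 49.8% for all genes and 67.3% below zero for the long genes. Of the marker lists, 8 of 12 microglia, 4 of 12 reactive astrocyte and 2 of 12 thalamus markers rose, and 4 of 6 pituitary and 2 of 10 dopaminergic neuron markers fell, while 0 leptomeningeal, endothelial, pericyte, smooth muscle or choroid plexus markers passed in limma. The part of the lists that moved in the Col19a1 value was not tested, apart from the thalamus covariate.

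AAV-SIRT3 against AAV-GFP asks what went with SIRT3 beyond the virus. No collagen passed in limma, where 0.113% of all genes did (0.0771% lower and 0.036% higher, and 0.189% of the long genes lower), and none passed in edgeR. DESeq2 on the recovered reads called Col4a5 and Col4a6, and 1.6% of all genes. At an unadjusted p under 0.05, 9 collagens had values below zero and 0 above. Those 9 were Col2a1, Col5a3, Col11a2, Col24a1 and Col27a1 of the fibrillar class, Col4a3, Col4a5 and Col4a6 of type IV, and Col19a1. Of all 19443 genes 1384 were lower and 1580 higher at that p (15.2% in both directions together), and 512 of the 4229 long genes were lower. Col4a5 had -0.42 (SE 0.108, limma, adjusted p = 0.108) and Col4a6 -0.85 (SE 0.235, limma, adjusted p = 0.121), the latter the largest difference of any collagen in this comparison. Their AAV-SIRT3 libraries overlapped the AAV-GFP range in both genes. Col2a1 was the only collagen without overlap, its 6 AAV-SIRT3 libraries at 189 to 216 all below the 6 AAV-GFP libraries at 220.4 to 263. Such a separation in that direction was shown by 0.381% of all genes and by 22 of the 4229 long genes. The log2 fold change of Col2a1 was -0.25 (SE 0.0982, limma, adjusted p = 0.242). Col19a1 had -0.31 (SE 0.13, limma, adjusted p = 0.269) and Col4a1 -0.084 (SE 0.0436, limma, adjusted p = 0.361). Leaving out AAV-GFP replicate 2 brought 3 collagens past the threshold, Col4a5, Col19a1 and Col24a1, where 4.43% of all genes then passed. Among markers 2 of 12 microglia and 2 of 12 reactive astrocyte genes fell, and 0 of the vessel, meningeal, choroid plexus, pituitary or thalamus genes passed in limma. At an unadjusted p under 0.05, 8 of 12 endothelial markers had values below zero, and their part in the collagen values was not tested.

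By class, all 11 fibrillar chains were below zero in this comparison, with a median of -0.25. Of the 8 basement membrane chains 7 were below zero, with a median of -0.22, namely the 6 type IV chains (median -0.33) and Col18a1, while Col15a1 had 0.09. For the 24 tested collagens outside the fibrillar and basement membrane classes the median was -0.11 with 16 below zero, and for FACIT chains 4 of 9 were below zero. Over all genes the median was -0.0041 with 51.4% below zero, and 68.1% of the long genes were below zero. Members of a class share libraries and cell sources and are not independent. In AAV-GFP against intact the 6 type VI chains were all below zero with a median of -0.29. The 3 comparisons share samples in pairs, so their values are given side by side and no overlap between them was tested.

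**Figure D4:**
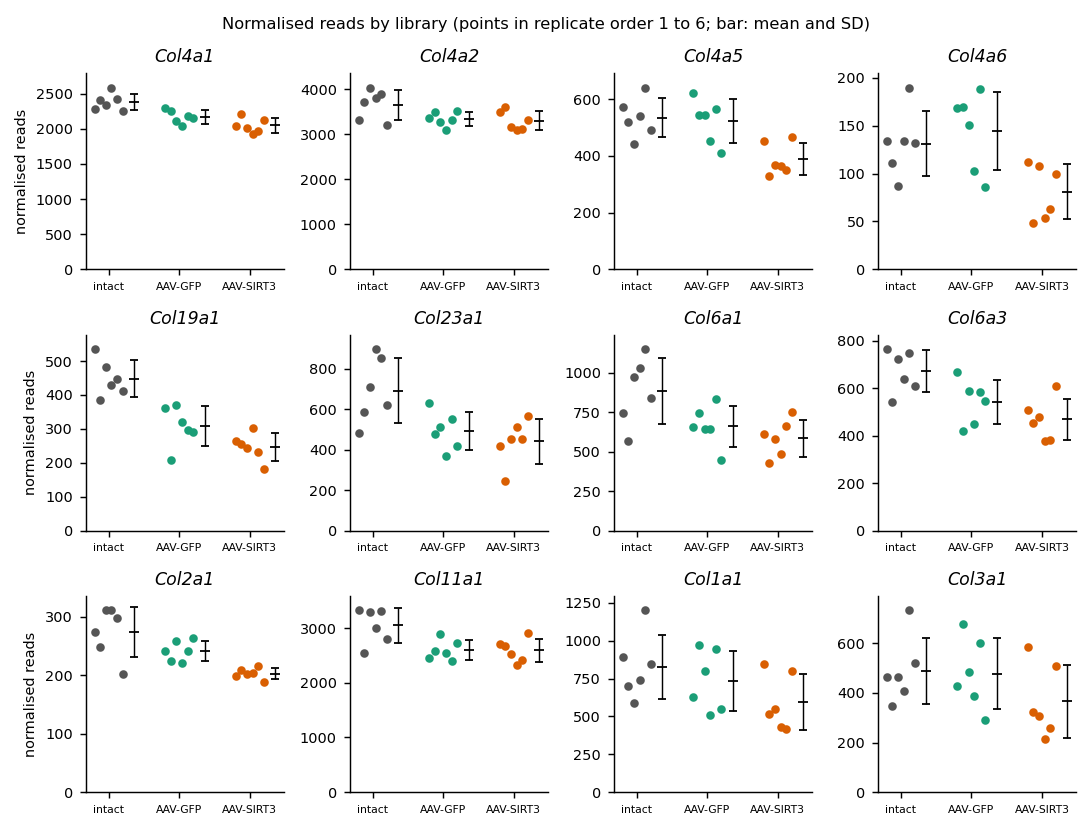
Normalised reads (vertical axis, from 0) of 12 collagens in each of 18 libraries, with points in replicate order and the mean and SD of 6 libraries beside each group. Col19a1 has its 6 intact libraries above all 12 virus libraries, and Col1a1 and Col3a1 spread widely within every group. All 12 genes have their lowest mean in AAV-SIRT3, Col11a1 by very little. Most of the 12 are members called lower in that group against intact, so this follows largely from the choice of genes. Some members not shown, such as Col25a1, do not have their lowest mean there.

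Summed over a class, the type IV chains held 6906 ± 428 normalised reads without virus, 6349 ± 305 after AAV-GFP and 5954 ± 349 after AAV-SIRT3 (SD, n = 6 per group). The 4 minor chains, Col4a3 to Col4a6, held 865 ± 133, 840.0 ± 144 and 611 ± 125. Fibrillar chains summed to 11302 ± 1469, 10604 ± 797 and 9353 ± 1401, and type VI chains to 2589 ± 359.7, 2064 ± 270.4 and 1859.7 ± 379. FACIT chains summed to 6105 ± 282, 5818 ± 221 and 5677 ± 565, and short chain network formers to 712 ± 165, 692 ± 215 and 561 ± 77.2. Not every class was lowest after AAV-SIRT3. Transmembrane chains held 7498 ± 870.0, 6857 ± 761 and 6937 ± 495, and anchoring and unclassified chains 739 ± 61.2, 779 ± 46.2 and 781 ± 117. These sums weigh each gene by its reads, so abundant chains dominate them.

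A further question was whether chains that assemble together, or genes that share a start region, varied together from mouse to mouse. In all, 14 pairs were examined on log2 values with each group's mean removed, and p-values were permuted within groups and adjusted over the 14. The 4 pairs that hold Col1a1 are given apart, for a reason stated with them. Col4a5 and Col4a6 gave r = 0.86 (permutation p = 7e-05, adjusted p = 0.000245) and rho = 0.851 (permutation p = 9e-05, adjusted p = 0.000315) over 18 libraries. Without the 2 libraries farthest from the median r was 0.824. The part of the shared start region and that of tissue content in this relation were not tested. The other head-to-head pairs gave r = 0.686 (permutation p = 0.00387, adjusted p = 0.00677) and rho = 0.67 (permutation p = 0.00606, adjusted p = 0.0141) for Col4a1 with Col4a2, and r = 0.647 (permutation p = 0.00242, adjusted p = 0.00484) and rho = 0.571 (permutation p = 0.0104, adjusted p = 0.0184) for Col4a3 with Col4a4, with r of 0.642 and 0.601 without the farthest 2. Col6a1 and Col6a2, adjacent genes and partner chains, gave r = 0.782 (permutation p = 0.00017, adjusted p = 0.000476) and rho = 0.653 (permutation p = 0.00535, adjusted p = 0.0141), and r was 0.698 without the farthest 2. Col3a1 and Col5a2, tail-to-tail neighbours, gave r = 0.551 (permutation p = 0.0269, adjusted p = 0.0377) and rho = 0.519 (permutation p = 0.0387, adjusted p = 0.0603), and 0.46 without 2. Col9a1 and Col9a3, partner chains of type IX on different chromosomes, gave r = 0.211 (permutation p = 0.428, adjusted p = 0.428) and rho = 0.234 (permutation p = 0.371, adjusted p = 0.371), which did not pass, and 0.0861 without 2.

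Libraries that stand apart bear on some of these relations. Summed leptomeningeal markers other than Ptgds left a gap, with 6 libraries at 8879 or below (AAV-GFP replicates 4 and 6 and AAV-SIRT3 replicates 2 to 5) and 12 at 10183 or above, which include all 6 intact ones. Col1a1 reads fell on the same 2 sides, 417 to 552 and 589 to 1200.2, though without a clear gap. This division was chosen after the values were seen. Over all 18 libraries with group means removed, Col1a1 gave r = 0.922 and rho = 0.882 with the mean log2 of all leptomeningeal markers, Ptgds included (each permutation p = 1e-05, adjusted p = 7e-05). With Col1a2, on a different chromosome, it gave r = 0.964 and rho = 0.94 at the same p-values. With Col3a1 these were 0.905 and 0.86 (permutation, adjusted p = 9.33e-05 and 0.00028). With Col4a1 they were 0.294 and 0.387 (permutation, adjusted p = 0.287 and 0.15). On log2 values, here without removal of group means, Col1a1 followed those markers in the 12 upper libraries with r = 0.776 (permutation p = 0.0031, adjusted p = 0.00827) and rho = 0.755 (permutation p = 0.00694, adjusted p = 0.0185). It followed Col1a2 there with r = 0.871 (permutation p = 0.00016, adjusted p = 0.00128) and rho = 0.902 (permutation p = 0.00016, adjusted p = 0.00128), and Col3a1 with r = 0.8 (permutation p = 0.00202, adjusted p = 0.00808) and rho = 0.867 (permutation p = 0.00044, adjusted p = 0.00176). With Col4a1, the vessel chain, it gave r = -0.111 (permutation p = 0.738, adjusted p = 0.738) and rho = -0.252 (permutation p = 0.431, adjusted p = 0.431) in those libraries. Among the 6 lower libraries Col1a1 gave r = 0.756 (exact permutation p = 0.0861, adjusted p = 0.138) and rho = 0.657 (exact permutation p = 0.175, adjusted p = 0.28) with the markers. With Col1a2 it gave r = 0.955 (exact permutation p = 0.0194, adjusted p = 0.0389) and rho = 0.886 (exact permutation p = 0.0333, adjusted p = 0.0667) there, with Col3a1 r = 0.66 (exact permutation p = 0.164, adjusted p = 0.187) and rho = 0.429 (exact permutation p = 0.419, adjusted p = 0.431), and with Col4a1 r = 0.688 (exact permutation p = 0.128, adjusted p = 0.17) and rho = 0.543 (exact permutation p = 0.297, adjusted p = 0.396). These 8 relations were adjusted together. The sides were drawn on the summed markers other than Ptgds, which are among the markers correlated here, and each side mixes groups. Differences between groups therefore enter these values by side, and the difference between the sides was not tested.

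Col8a1 and Col8a2, the short chain pair, gave r = 0.637 (permutation p = 0.00588, adjusted p = 0.00915) and rho = 0.484 (permutation p = 0.0506, adjusted p = 0.0709), but r fell to 0.25 without intact replicate 2 and AAV-GFP replicate 5, so the relation rests on the 2 choroid-rich libraries. Col8a2 followed choroid plexus markers with r = 0.698 (permutation p = 0.00112, adjusted p = 0.00261) and rho = 0.552 (permutation p = 0.0105, adjusted p = 0.0184), and r was 0.623 without AAV-GFP replicate 5 and AAV-SIRT3 replicate 2. That value still holds the choroid-rich intact replicate 2, and the relation without both choroid-rich libraries was not tested. Col8a1 was 631 and 698 in the 2 choroid-rich libraries, and 476 or less elsewhere. Col4a1 with endothelial markers gave r = 0.488 (permutation p = 0.0592, adjusted p = 0.0691) and rho = 0.486 (permutation p = 0.0578, adjusted p = 0.0736), and Col25a1 with thalamus markers gave r = 0.489 (permutation p = 0.0462, adjusted p = 0.0589) and rho = 0.416 (permutation p = 0.128, adjusted p = 0.149). Neither passed after adjustment, and without the farthest 2 r was 0.375 and 0.369.

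**Figure D5:**
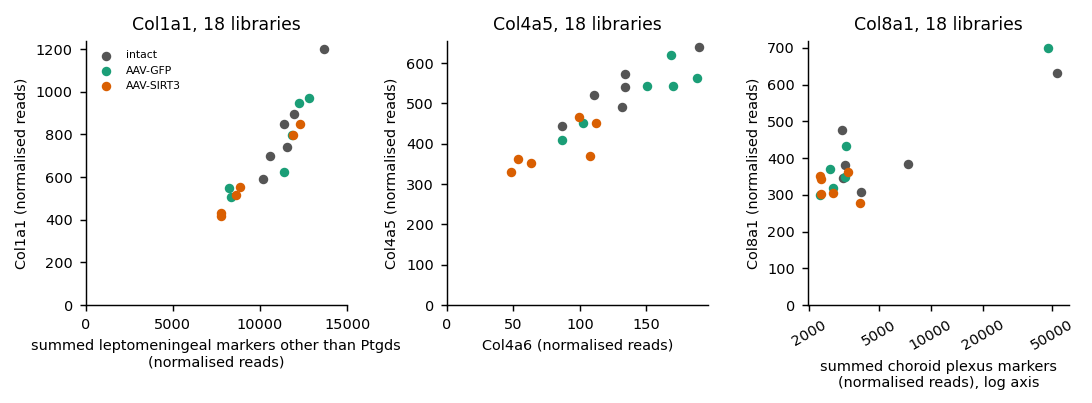
Normalised reads in 18 libraries, coloured by group: Col1a1 against summed leptomeningeal markers other than Ptgds, Col4a5 against Col4a6, and Col8a1 against summed choroid plexus markers (log axis). Col1a1 and the markers are both lower in 6 libraries than in the other 12, and the 2 highest Col8a1 values belong to the 2 libraries with the most choroid plexus markers.

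Genes that handle collagen were grouped in 6 lists by textbook role. In AAV-SIRT3 against intact, of 18 other basement membrane proteins 8 fell and 0 rose (44.4%, against 10.3% of all genes and 24.3% of the long genes called lower). Of these 18 genes 12 were as long as the long genes. The 5 with the largest differences were the linker proteins Nid2 (-0.77) and Nid1 (-0.44), the heparan sulfate proteoglycan perlecan, Hspg2 (-0.66), and the laminin chains Lama1 (-0.61) and Lama3 (-0.55). Their adjusted p in limma ran from 0.00169 to 0.0161. Of 12 tested genes of collagen breakdown and its inhibitors 5 fell and 1 rose. The membrane metalloproteinases Mmp16 (-0.59, limma, adjusted p = 0.00163) and Mmp14 (-0.57, adjusted p = 0.000538), the gelatinase Mmp2 (-0.36), and the inhibitors Reck (-0.31) and Timp3 (-0.25) were lower, while the inhibitor Timp4, named after its value was seen as the only one that rose, was higher (0.16).

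The remaining lists are read against the same 10.3% lower and 11.3% higher over all genes. Of 21 genes of collagen folding and secretion 4 fell and 1 rose. The hydroxylases P3h2 (-0.44), P3h3 (-0.17) and Plod2 (-0.23) and the export receptor Mia3 (-0.19) were lower, and P4hb, the protein disulfide isomerase subunit of prolyl hydroxylase, was higher (0.099). Among 9 tested collagen receptors Ddr2 (-0.46) and Itga1 (-0.37) fell and Lair1, an inhibitory receptor of immune cells, rose (0.27). Of 13 tested processing and crosslinking genes, only Lox, which crosslinks the fibrils, was called lower (-0.85, limma, adjusted p = 0.0412), a share of 7.69% that is below that of all genes. Of 9 tested fibril proteoglycans only Fmod was called lower (-0.76). Values lay below zero for 10 of those 13 genes (median -0.24) and for 9 of the 9 proteoglycans (median -0.40). Of these 9 proteoglycan genes 0 were as long as the long genes. In AAV-GFP against intact only Mmp16 (-0.48), Mmp14 (-0.33) and Lama3 (-0.45) of these lists passed, all lower. In AAV-SIRT3 against AAV-GFP 0 of the 82 tested genes of the 6 lists passed in limma. An unadjusted p under 0.05 was found for 22 of the 82, all with values below zero. Over all genes it was found for 15.2% in either direction, with 1384 of 19443 lower.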

How the data were processed

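Poly-A RNA of substantia nigra from 18 mice (6 per group) was sequenced in paired reads of 100 bases with a stranded kit, per the labels' protocols. Alignment used HISAT2 2.1.0, the build was mm10 and DESeq2 1.34.0 was used, per the submitters' processing notes. The annotation and the strand setting of the counting are not given in the sources used here, so reads of the 28 members that overlap another annotated gene may be shared. The deposited values are a signal, gene counts divided by size factors by the authors. Whole reads were recovered from them for 100% of values in every library (47182529 to 64728587 reads), but the proof is weaker for intact replicate 4 and AAV-SIRT3 replicate 4, whose factors are near 1.

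Collagens were chosen by symbol. Members, classes and lists were chosen with earlier results of these data known. The 19443 genes that reached 10 in 6 or more libraries were fitted with limma 3.58.1 in R 4.3.3 on log2(value + 1), with 3 groups, a variance trend and 15 residual degrees of freedom, and Benjamini-Hochberg adjusted over all of them at 0.05. Fold changes of low genes are understated on this scale. The fit was run on simulated data with the same dispersion for every gene and no neighbouring tissue, so this check does not give its error rate in these libraries. Named members are those called, the 2 highest per kb in each class, and Col1a1, Col1a2, Col3a1, Col4a1 and Col4a2, and of each pathway list up to 5 called genes. Col21a1 was not analysed here. Replicates are separate mice and differed by more than counting noise (chi-square per degree of freedom of 8.27 or more). Alternatives were other scalings, pseudocounts of 0.5 and 10, other filters and thresholds, count models of the recovered reads (edgeR 4.0.16, DESeq2 1.42.0), a replicate block, and each library left out. The 4 added after seeing the data were the transcript length trend, 2 marker covariates and both choroid-rich libraries left out. Exon lengths, positions and coding sequences (longest coding transcript) come from GENCODE M21 (GRCm38, the same assembly as mm10), with lengths for 18855 of the tested genes.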

Additional observations from a re-analysis of the deposited data

Results flagged for a closer look

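Of 129 sets of 6 values (43 collagens in 3 groups), 6 held a library whose gap to its nearest neighbour took a larger share of the range than Dixon's 95% critical value, and 6.45 would be found by chance at 1 in 20. Col4a4 was 168 in AAV-GFP replicate 5, against at most 101 in the other AAV-GFP libraries. Col8a1 was 698 in the same library, against at most 432, and that library was 1 of the 2 rich in choroid plexus markers. Col13a1 was 68.9 in intact replicate 2, the other choroid-rich library, against at least 96.9 in the other intact ones. Col16a1 reached 2795 in AAV-SIRT3 replicate 6, against at most 2299.5, and Col22a1 reached 113 there, against at most 71.4. Col20a1 was 326 in AAV-SIRT3 replicate 4, against at most 262. With all libraries in the limma fit none of these 6 genes was called in any comparison, and the part of choroid plexus tissue in the values was not tested.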

How the results depend on the processing

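Of 35 alternatives run for each result, 0 turned the direction of any of the 19 log2 fold changes followed. In AAV-SIRT3 against intact 11 collagens were called by limma, and 9 to 16 when 1 library was left out, with 9 without intact replicate 4 or 5 or AAV-SIRT3 replicate 4 or 5 and 16 without AAV-SIRT3 replicate 6. The count was 17 at an adjusted p under 0.1, 2 with the thalamus covariate and 6 with the leptomeningeal covariate. All other alternatives gave 8 to 15, and with both choroid-rich libraries left out 1 of the 14 called, Col9a3, was higher. In AAV-GFP against intact the count of 1 became 0 with all genes above 0 or the thalamus covariate, 2 with DESeq2, array weights or both choroid-rich libraries left out, 3 at an adjusted p under 0.1, and 0 to 2 when 1 library was left out. In AAV-SIRT3 against AAV-GFP the count of 0 became 2 with DESeq2 and 0 to 3 when 1 library was left out, with 3 without AAV-GFP replicate 2. The replicate block called 0, 1 and 10 collagens (AAV-SIRT3 against AAV-GFP, AAV-GFP against intact, AAV-SIRT3 against intact), and lost Col11a2. The numbers do not pair the samples: same-numbered libraries correlated at -0.095 to 0.18, and 1 of 6 at most matched best with its own number. The median of all genes moved by less than 0.1 under any scaling. Col10a1 and the lowest members are limited by depth, and 6 libraries per group limit the precision of the others.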
